A study of Arabidopsis thaliana with 21 samples.

Results

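Superoxide dismutases convert superoxide to hydrogen peroxide and oxygen, and plants carry families of them that differ in their metal. The genes described here are the Arabidopsis thaliana copper/zinc enzymes CSD1 (cytosol) and CSD2 (chloroplast), their copper chaperone CCS, the iron enzymes FSD1, FSD2 and FSD3, the mitochondrial manganese enzyme MSD1, and the microRNA genes MIR398A, MIR398B and MIR398C. Their loci are AT1G08830, AT2G28190 and AT1G12520 for CSD1, CSD2 and CCS, AT4G25100, AT5G51100 and AT5G23310 for FSD1 to FSD3, AT3G10920 for MSD1, and AT2G03445, AT5G14545 and AT5G14565 for MIR398A to MIR398C. The members were taken by locus identifier, and all 10 were present among 33602 genes of the mRNA table and among 32420 genes of the small RNA tables. As background, miR398 guides cleavage of CSD1, CSD2 and CCS transcripts. When copper is scarce, the transcription factor SPL7 switches on MIR398 genes and FSD1, so that iron replaces copper in the plastid and copper is spared for plastocyanin. Mature miR398b and miR398c have the same sequence, and miR398a differs from them at its end.

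The plants carried mutations in DXO1, named in the series title as a deNADding enzyme (it takes NAD caps off RNA) with exonuclease activity. mRNA was measured in 9 libraries of 16-day plants, from wild-type Col-0 and the single mutants dxo1-1 and dxo1-2. Small RNA was measured in 12 libraries of 10-day plants, from Col-0, dxo1-2, dcl4-2 (a mutant in DCL4, the Dicer-like enzyme behind most 21-nt siRNAs) and the double mutant dxo1-2dcl4-2. Each line had 3 replicates in each assay, and both mRNA mutants are compared with the same Col-0 libraries. Small RNA of dxo1-1 and mRNA of the lines with dcl4-2 are not analysed here, so dismutase mRNA and miR398 can be set side by side for Col-0 and dxo1-2 alone, at different ages. The tissue label is rosette leaves throughout, but the small RNA protocol speaks of seedlings. Whether replicates were separate cultures is not stated, so the spread that p-values rest on may be technical.

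DXO1 mRNA stood at 10.04 to 11.97 FPKM in Col-0, at 192.71 to 248.56 in the dxo1-1-labelled libraries and at 5.88 to 7.64 in dxo1-2. Its level in the dxo1-1-labelled libraries was above wild type, not below it as in dxo1-2. FPKM of a gene does not show whether the transcript is functional, and this was not tested. Every direction stated for that line rests on its label. The 4 leaf markers RBCS1A, CAB1, LHCB4.1 and RCA summed to 84666 to 89760 FPKM in Col-0, 49423 to 55628 in the dxo1-1-labelled libraries and 52523 to 53522 in dxo1-2. All 4 fell in both mutants, and of all tested genes 26% and 21.2% were lower at an adjusted p under 0.05. The 3 root markers summed to 7.62 to 9.03, 5.34 to 6.30 and 0.57 to 1.66 FPKM, with LRX1 at 0 in dxo1-2. The root marker AT3G01190 was not lower in the dxo1-1-labelled libraries (mean 3.74 FPKM) than in Col-0 (3.53). The 3 flower markers stayed at or under 0.48 FPKM in sum, with AP1 at 0 in both mutants and AP3 at 0 in the dxo1-1-labelled libraries. AG had means of 0.06 FPKM in Col-0, 0.04 in the dxo1-1-labelled libraries and 0.15 in dxo1-2. Small RNA libraries held 173804 to 1403794 reads over the 21-nt, 22-nt and 24-nt classes. FPKM, fragments per kilobase of transcript scaled to library depth, can be compared between genes, and the FPKM table gives no depth.

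As deposited, the mRNAs of the miR398 target group were higher in both mutants than in wild type, although CCS turned slightly lower in the dxo1-1-labelled libraries after quantile normalization. CSD1 rose most of the 7 dismutase and chaperone mRNAs. CSD2 and CCS were clearly higher in dxo1-2 and only slightly higher in the dxo1-1-labelled libraries. The iron enzyme FSD1 moved in opposite directions in the 2 mutants, and FSD2, an iron enzyme of the chloroplast nucleoid, fell in both.

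CSD1 was 275.5, 288.96 and 281.02 FPKM in wild type, 677.27, 710.56 and 708.17 in the dxo1-1-labelled libraries and 724.43, 762.68 and 736.69 in dxo1-2. All 6 mutant libraries lay above the 3 wild-type libraries, and the mutants' ranges did not overlap either. The mean was 2.48-fold higher in the dxo1-1-labelled libraries and 2.63-fold higher in dxo1-2. On the log2(FPKM + 1) scale the change was 1.31 (SE 0.04, adjusted p = 6.87e-11) and 1.39 (SE 0.04, adjusted p = 6.14e-11), by limma with Benjamini-Hochberg adjustment over 18378 genes. These changes exceeded those of 88.5% and 91.9% of all tested genes. In whole tissue, more cells that express a gene and more RNA per cell cannot be told apart.

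**Figure D1:**
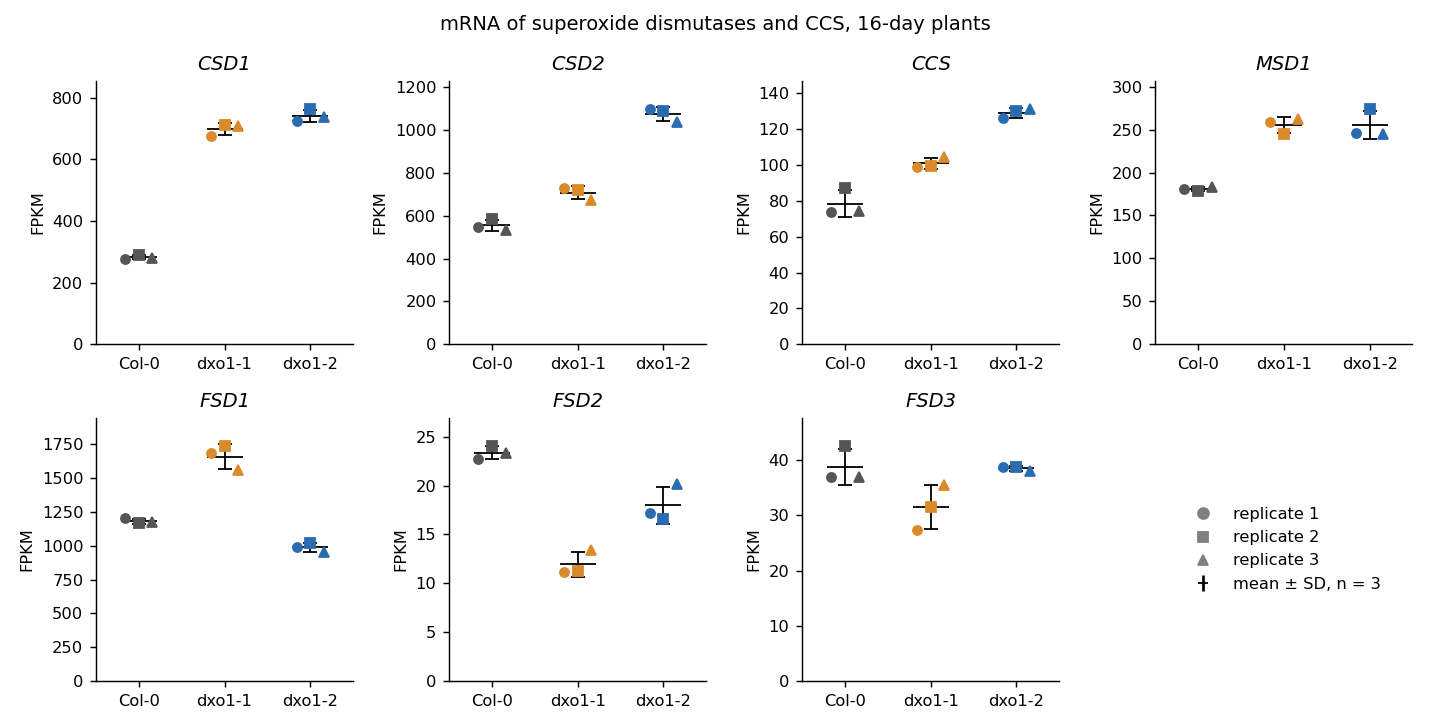
Levels of the 7 dismutase and chaperone mRNAs in FPKM (vertical axes start at 0) in each of the 9 mRNA libraries, with the mean and SD of 3 replicates per line. CSD1 is high in both mutants, CSD2 and CCS step upward from Col-0 to dxo1-1 to dxo1-2, and FSD1 is highest in dxo1-1 and lowest in dxo1-2.

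Many genes changed in these mutants, and the change of a single gene has to be read against that. At an adjusted p under 0.05, 49.6% of tested genes were higher and 26% lower in the dxo1-1-labelled libraries than in Col-0, and 51.8% were higher and 21.2% lower in dxo1-2. The median log2 change of all genes was 0.21 and 0.25. When each library was centred on its own median, it became -0.10 in both comparisons, and the calls turned to 34.4% higher and 43.5% lower, and to 32.3% higher and 42.5% lower. Changes are therefore given both as deposited and with libraries centred. Of the 7 mRNAs, 5 were higher and 2 lower in the dxo1-1-labelled libraries, and 4 were higher and 2 lower in dxo1-2. With libraries centred the counts were 3 higher and 2 lower, and 4 higher and 3 lower. With so many genes past the test, these counts are not read as a feature of the family. The list's median log2 change was 0.36 and 0.49 as deposited and 0.05 and 0.14 centred.

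CSD2, the chloroplast copper/zinc enzyme, was 548.84, 583.69 and 534.72 FPKM in wild type, 727.63, 719.89 and 671 in the dxo1-1-labelled libraries and 1096.81, 1087.5 and 1036.88 in dxo1-2. The 3 lines did not overlap. Its change in dxo1-2 was 1.93-fold (log2 0.95, SE 0.04, adjusted p = 6.48e-09; centred 0.60). In the dxo1-1-labelled libraries it was 1.27-fold (log2 0.35, adjusted p = 2.88e-05), which fell to 0.03 with libraries centred and no longer passed (adjusted p = 0.565). As deposited, the CSD2 change exceeded those of 57.3% of tested genes in the dxo1-1-labelled libraries and 82.8% in dxo1-2.

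CCS delivers copper to CSD1 and CSD2. It was 73.97, 86.99 and 74.25 FPKM in wild type, 98.74, 99.32 and 104.51 in the dxo1-1-labelled libraries and 126.07, 130.02 and 131.1 in dxo1-2. The lines were again separate, in the same order as for CSD2. Its log2 change in dxo1-2 was 0.72 (SE 0.06, adjusted p = 8.80e-07; centred 0.36). In the dxo1-1-labelled libraries it was 0.36 (adjusted p = 0.000215), against 0.05 centred (adjusted p = 0.311) and -0.07 after quantile normalization (adjusted p = 0.173).

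The other known miR398 targets were also higher. BCB, a blue copper-binding protein of the cell surface, was 179.49, 175.82 and 178.05 FPKM in wild type, 1207.4, 1330.32 and 1189.22 in the dxo1-1-labelled libraries and 701.7, 715.91 and 719.27 in dxo1-2. This was the largest change among these targets, 6.99-fold and 4.01-fold (log2 2.80 and 2.00, centred 2.48 and 1.64), and unlike CSD2 and CCS it was larger in the dxo1-1-labelled libraries. COX5B-1, a subunit of mitochondrial cytochrome c oxidase, rose from 66.61 to 78.14 FPKM in Col-0 to 108.04 to 112.32 and 108.62 to 124.38 (log2 0.57 and 0.63, adjusted p = 1.28e-05 and 6.23e-06, centred 0.26 and 0.28). After quantile normalization its change in the dxo1-1-labelled libraries was 0.13 and did not pass (adjusted p = 0.0825). Together, 5 of the 5 mRNAs of CSD1, CSD2, CCS, BCB and COX5B-1 were higher in each mutant as deposited, where 49.6% and 51.8% of all genes were. With libraries centred, 3 passed in the dxo1-1-labelled libraries and 5 in dxo1-2, against 34.4% and 32.3% of all genes.

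CSD3, the peroxisomal copper/zinc enzyme, is not a known miR398 target and is no member of the list above. It went the other way from CSD1 and CSD2. It was 54.03, 57.69 and 53.52 FPKM in wild type, 30.86, 22.68 and 35.42 in the dxo1-1-labelled libraries and 36.98, 32.54 and 31.91 in dxo1-2. Wild type did not overlap with either mutant. The log2 changes were -0.89 (SE 0.13, adjusted p = 6.28e-05) and -0.69 (SE 0.13, adjusted p = 0.0005), and -1.21 and -1.04 centred. In the dxo1-1-labelled libraries, 6.93% of tested genes had a lower log2 change.

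**Figure D2:**
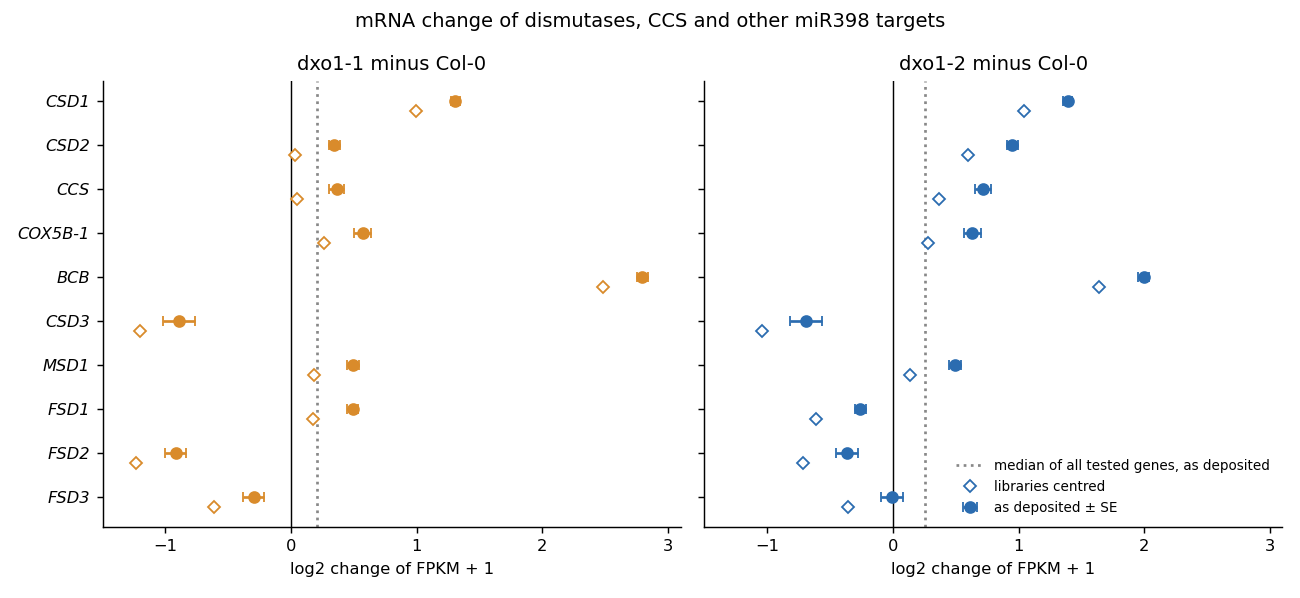
Change of each dismutase, CCS, BCB and COX5B-1 mRNA against Col-0 on the log2(FPKM + 1) scale, in the dxo1-1-labelled libraries and in dxo1-2. Filled points with bars are values as deposited with their SE, open diamonds are values with libraries centred, and the dotted line is the median of all tested genes; CSD1 and BCB lie far to the right of it in both panels, while CSD2 and CCS do so in dxo1-2.

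FSD1, the most abundant of these mRNAs in wild type, is the iron enzyme that SPL7 activates at low copper. It was 1204.24, 1165.6 and 1174.51 FPKM in wild type, 1683.2, 1738.76 and 1557.85 in the dxo1-1-labelled libraries and 988.28, 1019.91 and 954.38 in dxo1-2. The 3 lines did not overlap, with wild type in the middle. The log2 change was 0.49 (SE 0.04, adjusted p = 1.18e-06) in the dxo1-1-labelled libraries and -0.26 (SE 0.04, adjusted p = 0.000245) in dxo1-2, or 0.18 and -0.61 with libraries centred. The difference between the mutants was itself tested, at log2 -0.75 (SE 0.04, adjusted p = 5.84e-07), and it was lower than that of all but 3.11% of genes.

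FSD2 and FSD3 act with the plastid-encoded RNA polymerase and protect the chloroplast nucleoid. FSD2 was 22.74, 24.05 and 23.31 FPKM in wild type, 11.19, 11.2 and 13.36 in the dxo1-1-labelled libraries and 17.22, 16.53 and 20.16 in dxo1-2. The lines were separate and wild type was highest (log2 -0.92, adjusted p = 1.87e-06, and -0.37, adjusted p = 0.00269; centred -1.23 and -0.72). FSD3 was 36.98, 42.57 and 36.88 FPKM in wild type, 27.42, 31.53 and 35.43 in the dxo1-1-labelled libraries and 38.8, 38.84 and 38.02 in dxo1-2. It was lower in the dxo1-1-labelled libraries, with ranges close to touching (log2 -0.30, SE 0.09, adjusted p = 0.00834; centred -0.61). In dxo1-2 its log2 change was -0.01 (95% interval -0.20 to 0.18, adjusted p = 0.952) as deposited and -0.36 centred (adjusted p = 0.00108) and -0.41 after quantile normalization (adjusted p = 0.000506), so the call depends on the scaling.

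The other plastid polymerase-associated genes moved with FSD2. All 10 were lower in the dxo1-1-labelled libraries and 8 in dxo1-2, with 2 not past the test there, at a median log2 change of -0.83 and -0.35. With libraries centred all 10 were lower in both. Of all genes, 26% and 21.2% were lower as deposited, and 43.5% and 42.5% with libraries centred. PTAC14 (log2 -1.12 and -0.85), PTAC3 (-1.07 and -0.70), FLN1 (-0.99 and -0.43) and PTAC12 (-1.01 and -0.37) had the largest changes in the mean of both mutants. The leaf markers fell alongside, with a median log2 change of -0.69 and -0.77, and their part in the lower plastid mRNAs was not tested.

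MSD1, the mitochondrial enzyme, was 180.92, 178.89 and 182.98 FPKM in wild type, 259.27, 244.71 and 262.59 in the dxo1-1-labelled libraries and 246.59, 273.79 and 245.42 in dxo1-2. Both mutants lay above wild type and overlapped each other. The log2 changes of 0.50 and 0.49 (SE 0.05, adjusted p = 2.42e-06 and 2.90e-06) became 0.18 and 0.14 with libraries centred, and 0.08 and 0.10 after quantile normalization, where neither passed (adjusted p = 0.142 and 0.087). MSD2, its relative, was listed at 0 in 8 of the 9 libraries and at 0.09 FPKM in dxo1-2 replicate 1.

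Helpers that activate these enzymes were mixed. CPN20, a chaperonin that assists FSD1, fell in both mutants, from 761.64 to 815.18 FPKM in Col-0 to 507.37 to 513.11 and 667.33 to 687.73 (log2 -0.62 and -0.21, centred -0.93 and -0.56). MTM1, a mitochondrial carrier linked in yeast to manganese loading of the mitochondrial dismutase, stood at 3.76 to 4.53 FPKM in Col-0. It was at 7.12 to 8.17 and 4.83 to 5.49 in the mutants, a log2 change of 0.75 and of 0.23, and the second value turned to -0.13 with libraries centred.

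Summed over CSD1 to CSD3, FSD1 to FSD3 and MSD1, dismutase mRNA went from 2317 ± 27.8 FPKM (SD, n = 3) in Col-0 to 3393 ± 99.9 in the dxo1-1-labelled libraries and 3148 ± 84.2 in dxo1-2, and both mutants' ranges lay above wild type. These sums and shares were not tested, and the total depends on how libraries are scaled. Copper/zinc enzymes gave 37.8 to 39.7% of it in Col-0, 41.8 to 43.1% in the dxo1-1-labelled libraries and 58.3 to 59.0% in dxo1-2. Iron enzymes gave 52.6 to 54.4%, 48.9 to 51.2% and 33.1 to 33.3%. In wild type and the dxo1-1-labelled libraries iron enzymes held the larger share, and in dxo1-2 copper/zinc enzymes did. The ratio of CSD2 to FSD1, the main plastid enzymes of either metal, was 0.455 to 0.501 in Col-0, 0.414 to 0.432 in the dxo1-1-labelled libraries and 1.07 to 1.11 in dxo1-2. A ratio within a library does not change when the library is scaled by a single factor, but quantile normalization can change it.

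**Figure D3:**
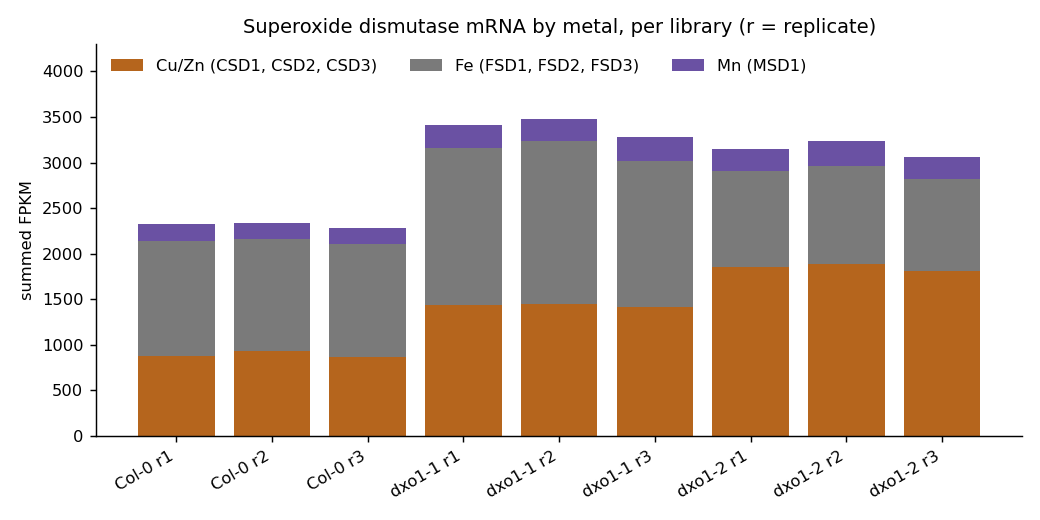
Summed FPKM of copper/zinc, iron and manganese superoxide dismutase mRNAs in each of the 9 mRNA libraries, stacked from 0. The total is higher in all 6 mutant libraries, and copper/zinc enzymes make up 58.3 to 59.0% of it in dxo1-2 against 37.8 to 39.7% in Col-0.

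The mutants were also compared with each other. Of all genes, 22.3% were higher and 15.7% lower in dxo1-2 than in the dxo1-1-labelled libraries, and of the 7 mRNAs 4 were higher, 1 lower and 2 did not pass. CSD2 differed by log2 0.60 (SE 0.04, adjusted p = 3.45e-06), more than 97.3% of tested genes. CCS differed by 0.35 (adjusted p = 0.00107), FSD2 by 0.55 (adjusted p = 0.000586) and FSD3 by 0.29 (adjusted p = 0.021). The FSD3 call was lost, at an adjusted p of 0.0751, 0.0562 or 0.0558, without dxo1-1 replicate 1, dxo1-2 replicate 1 or dxo1-2 replicate 2. For CSD1 the difference was 0.09 (95% interval 0.01 to 0.16, adjusted p = 0.0857), and it passed after quantile normalization (0.08, adjusted p = 0.0357). For MSD1 it was -0.0026 (95% interval -0.11 to 0.10, adjusted p = 0.973).

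Of the miR398 precursors, MIR398A and MIR398B were listed at 0 FPKM in all 9 libraries. MIR398C, for which the mRNA table uses a length of 1941 bases, was 1.15, 1.58 and 1.79 FPKM in wild type, 1.35, 2.25 and 1.66 in the dxo1-1-labelled libraries and 1.13, 0.79 and 1.48 in dxo1-2. The 3 lines overlapped. Neither change passed as deposited (log2 0.13, adjusted p = 0.5, and -0.24, adjusted p = 0.229). The first turned to -0.18 with libraries centred and did not pass, while the second became -0.59 and passed (adjusted p = 0.0085), as it did after quantile normalization (-0.51, adjusted p = 0.0222).

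Mature-sized small RNA at MIR398C was abundant in wild type, lower in dxo1-2 and far lower in the double mutant, while dcl4-2 alone overlapped wild type. The 21-nt normalized reads were 11837, 13492 and 12235 in Col-0, 13491, 10886 and 12025 in dcl4-2, 3732, 3899 and 3632 in dxo1-2, and 874, 832 and 752 in dxo1-2dcl4-2. Col-0 and dcl4-2 overlapped, and dxo1-2 and the double mutant each formed a range of their own. The mean of 12521 ± 864 (SD, n = 3) in Col-0 was 3.33-fold that of dxo1-2 (3754 ± 135) and 15.3-fold that of the double mutant (819 ± 62.4). DCL1, not DCL4, is the enzyme that normally makes miRNAs in Arabidopsis.

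**Figure D4:**
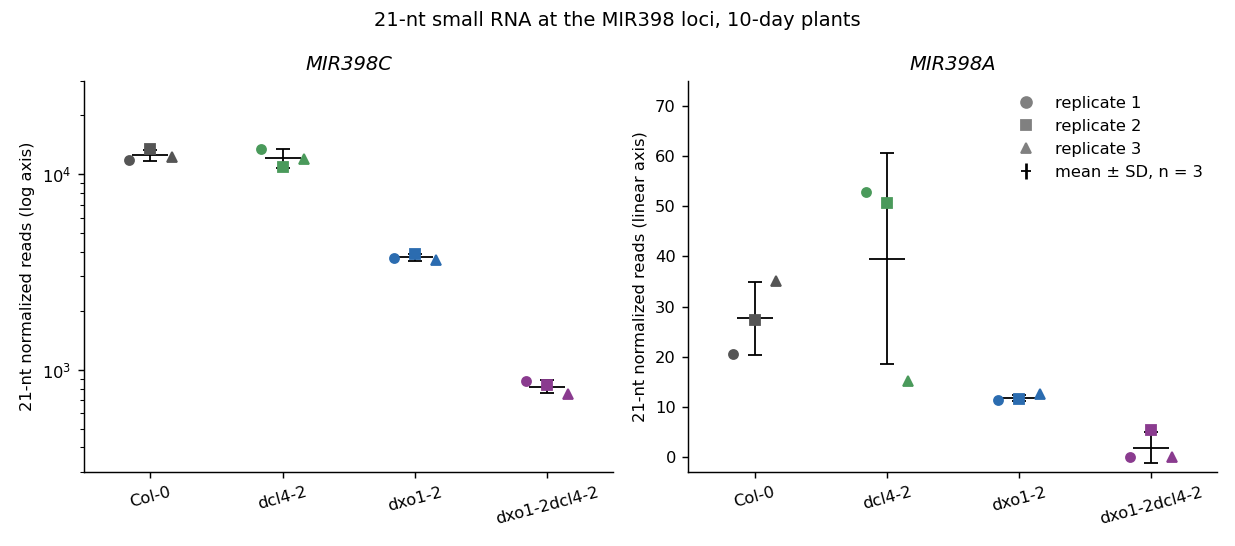
Normalized 21-nt reads at MIR398C (log axis) and MIR398A (linear axis) in the 12 small RNA libraries of 4 lines, with mean and SD of 3 replicates. MIR398C lies between 10886 and 13492 in Col-0 and dcl4-2, between 3632 and 3899 in dxo1-2, and between 752 and 874 in the double mutant.

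The MIR398C changes on the log2(normalized reads + 0.5) scale were -1.74 in dxo1-2 against Col-0 (SE 0.08, adjusted p = 3.59e-13), -3.93 in the double mutant against Col-0, -3.89 against dcl4-2 and -2.198 against dxo1-2. Among 7892 features tested at 21-nt, 0.938, 3.41, 3.86 and 4.59% passed in these comparisons in either direction. For dcl4-2 against Col-0 the change was -0.05 (95% interval -0.21 to 0.11, adjusted p = 0.96), and 0.862% of features passed. The effect of dxo1-2 was larger in the dcl4-2 background than in wild type, by an interaction of log2 -2.15 (SE 0.11, adjusted p = 6.38e-12), where 1.56% of features passed. All 20 alternative fits kept the sign and call of the 5 contrasts that involve dxo1-2, with a log2 change in dxo1-2 against Col-0 of -2.25 to -1.41.

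A fall in the same order of lines is seen in shares of reads, which need no size factor. Its size differs between measures, as a share also depends on the other reads of the class. Reads at miRNA genes were 50660 of 94528 21-nt reads in Col-0 replicate 1 and 65019 of 351376 in dxo1-2dcl4-2 replicate 1. MIR398C held 9.02 to 9.32% of the 21-nt reads at genes in Col-0, 8.58 to 10.3% in dcl4-2, 2.66 to 2.91% in dxo1-2 and 0.292 to 0.350% in the double mutant. The widest Wilson 95% interval of a single library was 10.06 to 10.46% (dcl4-2 replicate 1), and these intervals cover counting error only. Of reads at annotated miRNA genes, the share was 16.1 to 17.1% in Col-0, 14.9 to 17.4% in dcl4-2, 5.90 to 6.54% in dxo1-2 and 1.37 to 1.89% in the double mutant. By reads, MIR398C was the locus of rank 2 in every Col-0 and dcl4-2 library, of rank 4 or 5 in dxo1-2, and of rank 37 to 43 in the double mutant. The double-mutant libraries were also the deepest or near the deepest, with 728418 to 1403794 reads over the 3 classes.

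Other miRNA genes moved as well. Of 124 tested at 21-nt, 11 were lower and 2 higher in dxo1-2 than in Col-0, and 22 were lower and 6 higher in the double mutant. Of all 7892 features, 0.938 and 3.41% passed in either direction. The median log2 change of the miRNA genes was -0.37 and -0.48, against 0.44 and 0.00 for all features. MIR398C was not the lowest: 12 of the 124 had a lower log2 change in dxo1-2 and 9 in the double mutant, without regard to whether they passed. For the double mutant against dxo1-2, 18 of the 124 were lower than MIR398C, and for the interaction 22 were.

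MIR398A gave few reads. Recovered 21-nt reads were 15, 38 and 36 in Col-0, 34, 37 and 14 in dcl4-2, 15, 11 and 33 in dxo1-2, and 0, 6 and 0 in the double mutant. In normalized reads this was 20.5 to 35.1, 15.2 to 52.8, 11.3 to 12.5 and 0 to 5.37, so the double mutant lay below every other line. The double mutant passed against Col-0 (log2 -4.60, adjusted p = 0.00287), dcl4-2 (-4.94, adjusted p = 0.00122) and dxo1-2 (-3.43, adjusted p = 0.0312), and these fitted values depend on the offset of 0.5 reads. The last call was lost in edgeR (adjusted p = 0.0817) and in 8 other alternatives, with an adjusted p of 0.00192 to 0.116 over all 20. It was lost without Col-0 replicate 2, without dxo1-2dcl4-2 replicate 1 or 3, and without any of the 3 dxo1-2 replicates. In dxo1-2 against Col-0 the log2 change of -1.17 did not pass (adjusted p = 0.801), although the ranges did not overlap. The interaction did not pass (log2 -3.78, adjusted p = 0.213). It passed in 1 of 20 alternatives, without dxo1-2dcl4-2 replicate 2, the only double-mutant library with reads (-4.96, adjusted p = 0.0207). The double mutant then held 0 reads, so its fitted value was set by the offset, and this pass is not read as a result.

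MIR398B had 0 reads in every library and class. In Col-0 replicate 2 a count of 0 among 201632 reads of 21-nt allows a share of up to 0.00149%, by a floor of 3 counts. Since miR398b and miR398c are identical, a count of 0 at MIR398B beside 88720 reads at MIR398C over the 12 libraries does not tell which precursor the reads came from. How the authors placed reads that match several loci is not stated in the labels or files, so small RNA reads listed at MIR398C may come from either locus.

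At least 99.2% of the MIR398C reads of the 3 classes were 21-nt in every library. Its 22-nt reads numbered 6, 42 and 23 in Col-0, 17, 6 and 15 in dcl4-2, 22, 17 and 69 in dxo1-2, and 0, 2 and 0 in the double mutant. In this class dxo1-2 alone did not pass against Col-0 (log2 -0.26, 95% interval -2.03 to 1.51, adjusted p = 0.996). The double mutant passed against Col-0, dcl4-2 and dxo1-2 (adjusted p = 0.000229, 0.000451 and 0.000714), where 4.72, 5.55 and 2.65% of all features passed. In dxo1-2 and dcl4-2 against Col-0 and in the interaction, 0.282, 1.14 and 2.12% did. The 22-nt interaction did not pass in limma (adjusted p = 0.0684) and passed in edgeR (adjusted p = 0.00947). Over 20 alternatives its adjusted p ran from 0.0057 to 0.228, and it passed in 5, among them DESeq2 (adjusted p = 0.0057). In limma it passed with a filter mean of at least 5 (adjusted p = 0.0205). With size factors from other miRNA genes, an alternative added after seeing the data, limma gave an adjusted p of 0.0361. Without dxo1-2dcl4-2 replicate 2, the only double-mutant library with such reads, it also passed in limma (adjusted p = 0.0161). That omission leaves the double mutant at 0 reads, so its fitted value there is set by the offset. MIR398A, with at most 8 reads of 22-nt in a library, passed in none of 6 contrasts by limma, edgeR or DESeq2, and 0 had an unadjusted p under 0.05 by limma. No 24-nt contrast at MIR398C passed by limma, edgeR or DESeq2, and at an unadjusted p under 0.05 2 of 6 did by limma; the 24-nt reads peaked at 15 in dcl4-2 replicate 3. Of all 24-nt features, 0.13, 0.366, 5.71, 4.57, 2.49 and 0.791% passed in the 6 contrasts, in the order dxo1-2 and dcl4-2 against Col-0, the double mutant against Col-0, dcl4-2 and dxo1-2, and the interaction.

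Few small RNAs mapped to the dismutase genes themselves. Over 12 libraries and 3 classes, FSD1 had 188 reads, CSD2 74, CSD1 69, MSD1 60, CCS 21, FSD3 5 and FSD2 0, with at most 30 in a library and class. No contrast at these loci passed by limma, edgeR or DESeq2, and 3 of 30 tests at 22-nt, 1 of 18 at 24-nt and 0 of 18 at 21-nt had an unadjusted p under 0.05 by limma. CSD2 had 22-nt reads only in the double mutant, 0, 15 and 11 in its 3 libraries, so it met the filter through that line alone. Tests at these loci passed only when dxo1-2dcl4-2 replicate 1, the library at 0, was left out. Then 4 of 30 at 22-nt passed, all at CSD2 (log2 4.65). Since that omission removes the library that differed, these calls are not read as a gain at CSD2.

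Other genes of copper handling showed no common direction. Of 18 listed genes 15 were tested, and 10 were higher and 4 lower in the dxo1-1-labelled libraries, and 7 higher and 4 lower in dxo1-2. Centred, the counts were 9 and 4, and 5 and 6. Over all genes 49.6% and 51.8% were higher and 26% and 21.2% lower as deposited. Centred, 34.4% and 32.3% were higher and 43.5% and 42.5% lower, so the counts are not read as a feature of this list. COX17, which in yeast carries copper to cytochrome c oxidase, had the largest change (log2 1.92 and 1.74, centred 1.61 and 1.38). The plasma membrane copper importers COPT1 (1.61 and 1.66) and COPT2 (1.58 and 1.32) and the vacuolar exporter COPT5 (1.14 and 1.20) were higher in both mutants, also centred. SPL7 itself stood at 7.04 to 9.46 FPKM in Col-0, at 11.75 to 12.72 in the dxo1-1-labelled libraries and at 11.26 to 12.44 in dxo1-2 (log2 0.52 and 0.48, centred 0.20 and 0.13, the latter not past the test). The 4 lower genes were those of plastid copper use, the copper pumps PAA1 (-0.89 and -0.77) and PAA2 (-0.78 and -0.62) and the plastocyanins PETE1 (-0.96 and -0.64) and PETE2 (-1.22 and -1.08). SPL7, the pumps and the plastocyanins were named after their values were seen.

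The remaining copper-responsive miRNAs were scarce. Over all 12 libraries, MIR408 had 0 reads of 21-nt, MIR397B 8, MIR397A 12 and MIR857 17. MIR857, the one tested, had 2, 7 and 6 reads in Col-0, 2 in dxo1-2 replicate 3 and 0 elsewhere, and none of its 6 contrasts passed. Of 8 targets of these miRNAs 6 were tested. In the dxo1-1-labelled libraries 3 were higher and 2 lower, and in dxo1-2 2 were higher and 1 lower. Over all genes 49.6% and 51.8% were higher and 26% and 21.2% lower, so these counts are not read as a feature of the targets. The plantacyanin ARPN (log2 1.01 and 0.59) and the laccase LAC13 (0.55 and 0.59) were higher in both mutants, and the laccase LAC3 (-0.98 and -0.66) was lower in both.

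Genes that remove hydrogen peroxide, the product of dismutases, moved in both directions. Of 28 listed genes 26 were tested; 19 were higher and 5 lower in the dxo1-1-labelled libraries, and 16 higher and 6 lower in dxo1-2, at median log2 changes of 0.50 and 0.33. Over all genes 49.6% and 51.8% were higher, at medians of 0.21 and 0.25, so the counts are not read as a feature of this list. Centred, the counts were 14 and 7, and 12 and 12. The glutathione peroxidase-like genes GPX5 (1.80 and 1.68), GPX6 (1.36 and 1.39) and GPX8 (1.36 and 1.13) had the highest changes by the naming rule. TAPX, the thylakoid ascorbate peroxidase, was 126.43, 130.29 and 127.38 FPKM in wild type, 32.47, 31.32 and 34.3 in the dxo1-1-labelled libraries and 43.16, 44.59 and 42.99 in dxo1-2 (log2 -1.94 and -1.53). Of the 10 RBOH oxidases, which make superoxide at the plasma membrane, 2 were expressed enough to test. RBOHD (log2 0.32 and 0.55) and RBOHF (0.63 and 0.26) passed in both mutants as deposited. Centred, RBOHD stood at 0.01 and 0.20 and RBOHF at 0.32 and -0.09.

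**Figure D5:**
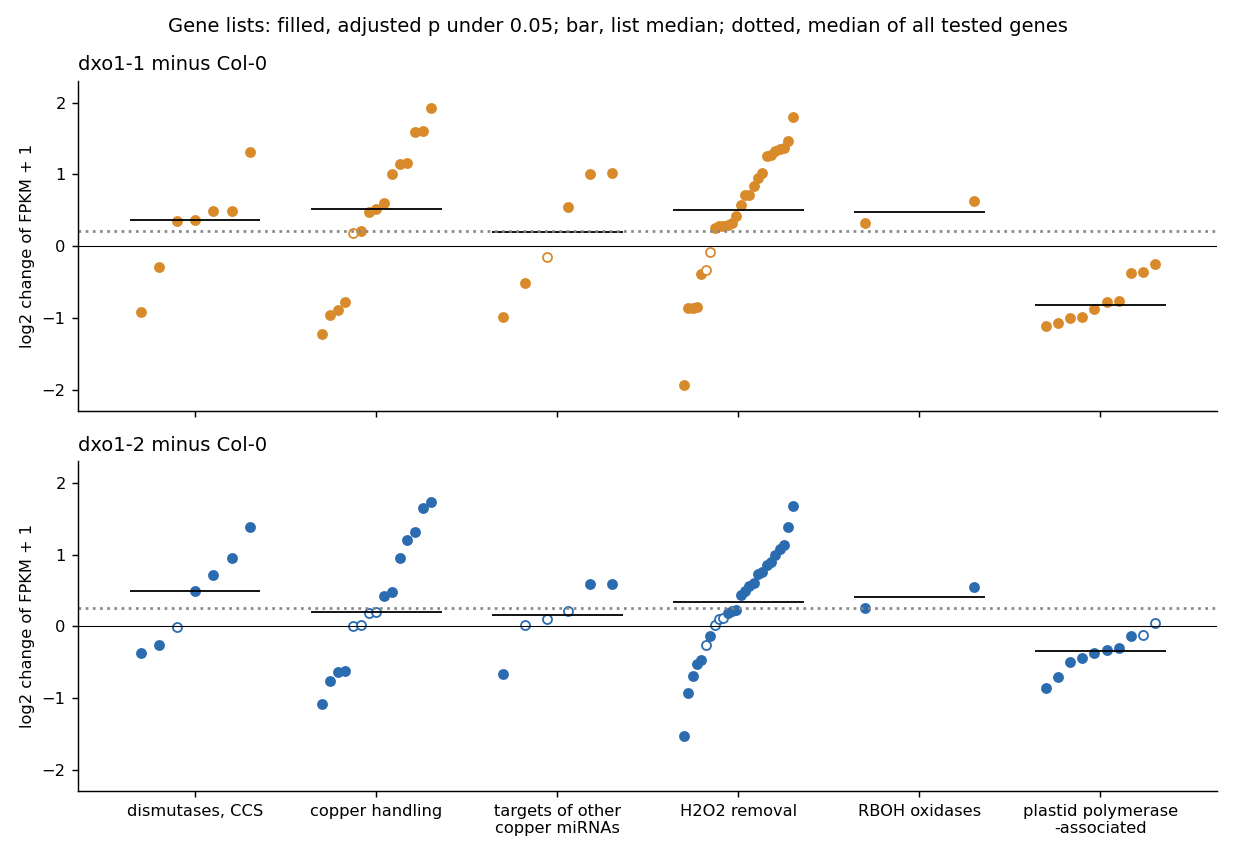
Log2 changes against Col-0 of every tested gene in 6 lists, in the dxo1-1-labelled libraries (top) and in dxo1-2 (bottom), as deposited; filled points passed at an adjusted p under 0.05, bars are list medians and the dotted line is the median of all genes. The polymerase-associated genes lie at or below 0.04 in both panels, while copper genes spread from below -1 to above 1.7.

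Of 3 listed neighbours of the MIR398B and MIR398C genes 2 were tested. These 2 were higher in both mutants, also with libraries centred. Higher calls made up 49.6% and 51.8% of all genes as deposited, and 34.4% and 32.3% centred. The count is therefore not read as a feature of the locus. In the TAIR10.1 annotation MIR398B lies inside the span of AT5G14550, which stood at 6.12 to 6.91 FPKM in Col-0, 11.96 to 13.46 in the dxo1-1-labelled libraries and 11.59 to 12.96 in dxo1-2 (log2 0.86 and 0.85, centred 0.55 and 0.50). NRT2.7, a nitrate transporter of seeds, had log2 changes of 1.01 and 1.27 (centred 0.70 and 0.91). AT5G14560 was listed at 0 FPKM in all libraries. Reads of overlapping genes cannot be told apart where strand was not used, and the labels and files do not state whether it was.

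The mRNAs whose log2(FPKM + 1) followed CSD1 most closely over the 9 libraries were AT1G24147 (Pearson r = 0.9996), AT5G44820 (0.9993) and KNAT5 (0.9992). As 3982 of 18378 genes had an r above 0.95 with CSD1, that likeness is common here. CSD2 was followed by the ribosomal protein genes RPL12A (0.996) and RPL12C (0.995) and by ERF105 (0.994), with 316 genes above 0.95. FSD1 was followed by ILL4 (0.985), PRS3 (0.985) and CDEF1 (0.982), with 43 genes above 0.95. For 21-nt reads at MIR398C over 12 libraries the closest were RBCL (0.975), AT3G59240 (0.967) and MIR167A (0.967), and 9 of 7892 features exceeded 0.95. The 3 points of a line share its genotype, so these values describe the pattern across lines.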

How the data were processed

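mRNA was measured in 9 libraries and small RNA in 12. Gene levels were deposited as FPKM, per the labels. The submitters' processing notes list TopHat2 2.1.0, RSEM 2.1.30 and the TAIR10 build. Small RNA was deposited as a signal per gene, reads divided by size factors, in 1 table each for 21-nt, 22-nt and 24-nt RNA, with Bowtie listed per the submitters' processing notes. Tool settings, strand use and multiple mapping: not given in the sources used here. All values above 0 in the 3 tables (100%) were whole multiples of a step, within 0.001 reads. The steps were proportional to the reciprocals of median-of-ratio size factors, so whole reads were recovered.

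Groups and replicates came from sample titles. limma 3.58.1 (R 4.3.3, mean-variance trend) was run on log2(FPKM + 1) for 18378 genes averaging 1 FPKM or more, and on log2(normalized reads + 0.5) for 7892, 8498 and 8473 features with a mean of at least 1 at 21-nt, 22-nt and 24-nt, each in a single fit over all lines. The threshold was an adjusted p (Benjamini-Hochberg, all features of a table) under 0.05, from limma unless another tool is named. edgeR 4.0.16 and DESeq2 1.42.0 on recovered reads, other offsets, filters, scalings, a replicate block and omission of each library were alternatives. Of the members, all 7 dismutase and chaperone mRNAs and MIR398C passed the FPKM filter; MIR398A and MIR398C passed at 21-nt and 22-nt and MIR398C at 24-nt. Symbols came from RefSeq TAIR10.1, which matched all 10 members, 32835 of 33602 and 31722 of 32420 loci. No sequences are printed, as none was in the sources used here.

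The members and gene lists were chosen with earlier results of these data known. Genes were named by a rule: all members, all of a list of up to 5, and the 4 with the largest mean change among those past the test with the same sign in both mutants of a longer list; likeness used MIR398C because MIR398B was at 0. Tests were tried on simulated data.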

Additional observations from a re-analysis of the deposited data

Results flagged for a closer look

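For 21-nt reads at MIR398C, the effect of dxo1-2 differed between backgrounds: it was log2 -1.74 in wild type and -3.89 in dcl4-2, and the interaction term was -2.15 (adjusted p = 6.38e-12). Without regard to whether they passed, 17.8% of the 7892 tested features had a lower interaction term. For FSD1 mRNA, the mutants moved apart from Col-0 in opposite directions, and the test of dxo1-2 against the dxo1-1-labelled libraries gave log2 -0.75 (adjusted p = 5.84e-07). Groups of 3 are too small for a search for single outlying libraries.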

How the results depend on the processing

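The count of higher dismutase mRNAs in the dxo1-1-labelled libraries fell from 5 to 3 with libraries centred and to 3 after quantile normalization. The count of MIR398 loci passing at 21-nt in the double mutant against dxo1-2 fell from 2 to 1 with edgeR, with no filter and with size factors over the 3 classes, and ranged from 1 to 2 when a library was left out; for the interaction that range was also 1 to 2. Several changes near 0 that did not pass as deposited turned sign. For mRNA these were MIR398C in the dxo1-1-labelled libraries (-0.18 centred, -0.042 after quantile normalization), MSD1 between mutants (0.017 after quantile normalization, -0.054 to 0.025 over left-out libraries) and FSD3 in dxo1-2 (-0.041 to 0.060 over left-out libraries). CCS in the dxo1-1-labelled libraries, which passed as deposited, turned to -0.071 after quantile normalization. For small RNA they were 21-nt MIR398C in dcl4-2 (0.10 with edgeR, 0.22 with size factors over 3 classes, 0.035 with those from other miRNA genes, an alternative added after seeing the data, and -0.13 to 0.027 over left-out libraries) and 22-nt MIR398C in dxo1-2 (0.46 with factors from other miRNA genes, -0.67 to 0.029 over left-out libraries) and in dcl4-2 (0.054 with size factors over 3 classes, -0.70 to 0.10 over left-out libraries). The cause was not tested.

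The shared replicate numbers did not pair the samples: deviations of same-numbered libraries correlated at -0.03 to 0.09 over 9 mRNA pairs and -0.02 to 0.02 over 18 pairs at 21-nt. With a replicate block, 5 dismutase mRNAs rose and 2 fell for the dxo1-1 label, 4 rose and 2 fell for dxo1-2, and 5 and 1 did between mutants, where CSD1 (log2 0.09) then passed (adjusted p = 0.0417). MIR398 loci passing at 21-nt stayed at 1, 0, 2, 2, 2 and 1 under the block in the contrasts of dxo1-2 and dcl4-2 against Col-0, of the double mutant against Col-0, dcl4-2 and dxo1-2, and of the interaction. Low reads limit what can be said of MIR398A, of 22-nt reads and of small RNAs at the dismutase loci.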
